A study of Arabidopsis thaliana with 46 samples.

Results

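The 200 loci described here are noncoding RNA loci of Arabidopsis thaliana that were counted in the cycloheximide (CHX) experiment of a nitrogen (N) signaling study. Among the 46 samples read here, the count tables of no other experiment list them, and further data of the study were not read. The 12 count tables of the CHX experiment list 33341 locus IDs, of which 5178 are absent from the tables of the other experiments read here. Of these, 2854 had a count in at least 1 library. The 200 with the highest mean CPM (a locus count as a share of all counts of its library, on the usual per-million scale) over the 12 libraries were taken, so the members were chosen by their overall level, which is not a result. They held between 74.0 and 80.7% of all counts on the 5178 IDs. In the TARGET assay, which tests a transcription factor transiently in isolated cells, root protoplasts of Col-0 seedlings aged 10 days were transfected with a vector for a transcription factor fused to a domain of the glucocorticoid receptor (GR), here TGA4, or with an empty vector (EV) that by the methods carries GR alone. All 12 cultures received N and 10 µM dexamethasone (DEX), which lets the fusion protein enter the nucleus, and were either left without CHX (EV_mChx and TGA4_mChx) or treated with 35 µM CHX (EV_pChx and TGA4_pChx), n = 3 libraries per group. By the methods, the wells of each vector came from 1 transfection and were sorted for red fluorescence, so a difference between vectors cannot be told apart from a difference between transfections, and p-values measure the spread between wells.

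CHX blocks the elongation step of translation and is used in the TARGET assay to keep new protein from being made, so that genes that respond to the factor without newly made protein can be found. A natural antisense transcript is an RNA made from the strand opposite a gene, and long noncoding RNAs (lncRNAs) are long transcripts without a recognised protein-coding frame. Many such RNAs are short-lived, and nonsense-mediated decay (NMD), which removes RNAs with aberrant stop codons or long tails behind the stop codon, works only during translation. TGA4 is a bZIP factor that binds TGACG elements and takes part in the nitrate response of roots.

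The libraries held between 2397664 and 8177924 counts, so 3 counts correspond to at most 1.25 CPM. The members took 1.25 to 1.47% of the counts without CHX and 1.53 to 1.64% with CHX. TGA4 itself, which the vector carries, was at 28.9 to 47.2 in the 6 EV libraries and at 8614 to 25994 in the 6 TGA4 libraries (CPM scaled with the trimmed mean of M-values, TMM, which is the scale of all levels below). In TGA4 cells its mean was 10232 without CHX and 24460 with CHX (log2 fold change 1.26, edgeR adjusted p = 3.58e-08). The level of the factor's transcript thus differed between the CHX groups in which TGA4 and EV cells are compared below. Of the root markers, the phloem gene APL was at 31.8 to 64.6 and the endodermis gene SCR at 6.50 to 12.4, while COBL9 and GL2 (epidermis), SHR (stele), VND7 (xylem) and WOX5 (quiescent centre) were at 6.36 or less in every library, and the cortex gene CO2 was at 0 in all 12. The shoot genes RBCS1A, CAB3 and RBCS2B did not exceed 2.09. APL was lower with TGA4 than with EV, by 0.49 on the log2 scale without CHX and 0.60 with CHX (edgeR adjusted p = 0.0424 and 0.0265), and COBL9 was lower with CHX in TGA4 cells (log2 fold change -2.20, adjusted p = 0.0244). The part of cell composition in the values below was not tested.

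All 200 members are in the RefSeq annotation (assembly TAIR10.1), where 175 are lncRNAs, 16 are other noncoding RNAs, 8 are antisense RNAs and 1 is an 18S ribosomal RNA. None of the tRNA, miRNA, snoRNA or snRNA loci among the 5178 IDs reached the 200. In all, 118 members have a single exon, and the summed exon length runs from 168 to 7249 bases with a median of 906.5. They lie on all 5 chromosomes, with 66 on chromosome 1, 35 on chromosome 2, 37 on chromosome 3, 30 on chromosome 4 and 32 on chromosome 5. The exons of 177 members overlap exons of a protein-coding gene on the other strand, each of a different gene, and 63 members lie wholly within exons of other genes. A further 14 overlap no other annotated gene, 6 share exons with a noncoding gene or a pseudogene, and 3 overlap another gene's span without sharing an exon. The longest stretch from a start to a stop codon in the member's own strand had a median of 55 codons (0 to 313) in the 177 antisense members and 50 codons (24 to 81) in the 14 that stand apart. The library kit marks no strand as far as the sources say, and it was not stated how reads over more than 1 gene were counted, so reads of an antisense member and of its coding partner cannot be told apart.

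The highest members were an 18S rRNA locus and loci opposite coding genes, and CHX set apart 4 of the 12 highest with increases. AT3G41768, the 18S rRNA of the cytosolic ribosome (chromosome 3, 14197677 to 14199484, plus strand), was at 695, 829.5 and 2846 in EV_mChx, 547, 867 and 897 in EV_pChx, 874, 1029.9 and 2017 in TGA4_mChx and 1067, 1557 and 614 in TGA4_pChx. The third library of both groups without CHX stood highest, and the CHX groups overlapped those without CHX (adjusted p = 0.0592 in EV and 0.603 in TGA4). The libraries were poly(A)-selected, so these are rRNA reads left after selection, and since rRNA genes are repeated, a part of them may belong to other copies. AT5G01255 lies wholly inside exons of NHL3 (AT5G06320), which encodes a plasma membrane protein of the NDR1/HIN1-like family. It was at 329.9, 289 and 322 in EV_mChx and 1366, 1703 and 2057 in EV_pChx, and at 315, 314 and 302 in TGA4_mChx and 1142, 1747 and 1847 in TGA4_pChx. All 6 libraries with CHX were above all 6 without it, with log2 fold changes of 2.45 ± 0.16 (SE) in EV and 2.35 ± 0.16 in TGA4 (adjusted p = 2.08e-11 and 5.19e-11). No base of this locus is its own, and NHL3 was at 587, 634 and 661 in EV_mChx and 2663, 3469.9 and 4122 in EV_pChx, a log2 fold change of 2.45 ± 0.17.

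AT4G08985 lies wholly inside exons of RRTF1 (AT4G34410), which encodes a redox-responsive ERF transcription factor. Its level was 15.7, 11.9 and 11.1 in EV_mChx and 1616, 1538 and 1591 in EV_pChx, and 14.6, 16.3 and 16.1 in TGA4_mChx and 1413, 1589 and 1725 in TGA4_pChx. AT2G08780, opposite the uncharacterized gene AT2G36220, was at 94.3, 109.9 and 92.2 in EV_mChx against 762, 806 and 775 in EV_pChx. Both loci were higher in all 6 libraries with CHX than in all 6 without it. AT2G30362, opposite the protein kinase gene SIP4, rose from 192, 149 and 177 to 340.3, 380.3 and 405 in EV (log2 fold change 1.12 ± 0.12, adjusted p = 9.12e-08). Other high members moved less. AT4G13505, opposite the ammonium transporter gene AMT1;1, was at 386, 419.7 and 475 in EV_mChx and 379, 324 and 379.8 in EV_pChx, lower with CHX in each library but not past the threshold (log2 fold change -0.24 ± 0.10, adjusted p = 0.0593), and fell in TGA4 cells (-0.40 ± 0.11, adjusted p = 0.00309). AT3G03475, opposite MTO3 (S-adenosylmethionine synthetase), had overlapping groups and a log2 fold change of 0.16 ± 0.15 with CHX in EV (adjusted p = 0.405). AT3G07805 (opposite the ABC transporter gene ABCA2), AT4G07855 (opposite the proton pump interactor gene PPI1) and AT1G04503 (opposite AT1G06760) fell with CHX in EV, by 0.37, 0.56 and 0.85 on the log2 scale. AT4G36648, which overlaps no other gene, was at 291, 272 and 246 in EV_mChx and 200.3, 236 and 236 in EV_pChx, and AT2G37362, opposite the suberin transporter gene ABCG2, at 316, 266 and 307 and 349, 244 and 276.

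**Figure D1:**
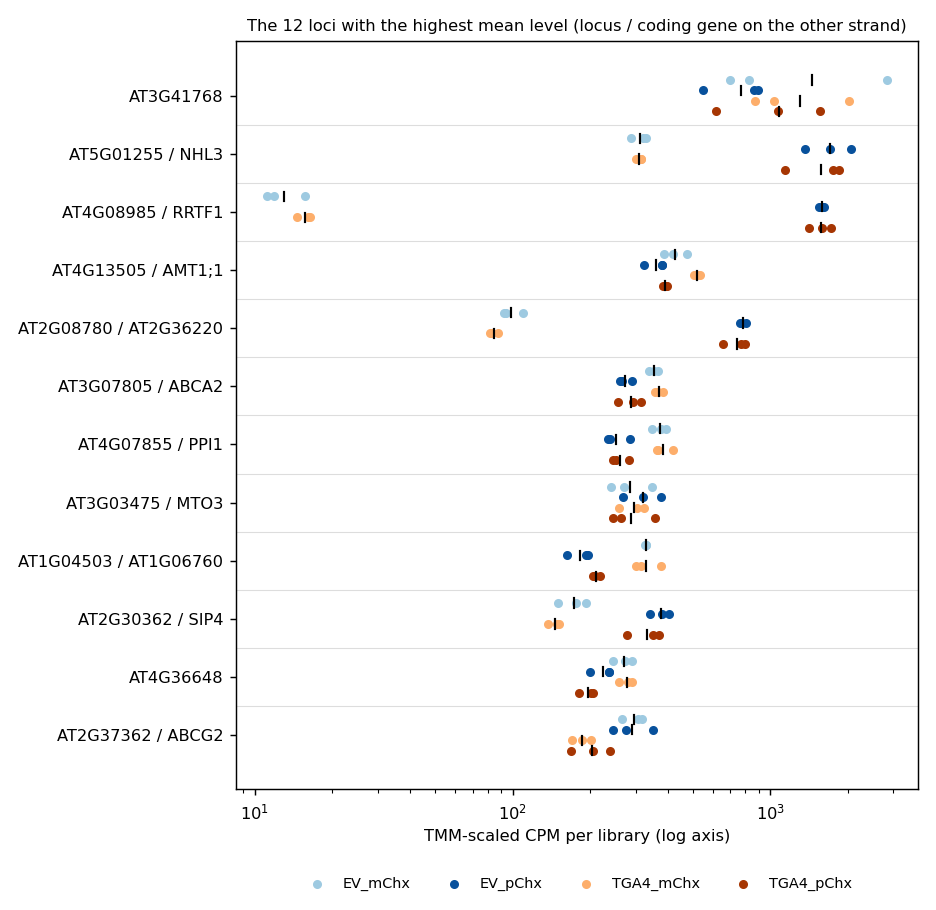
TMM-scaled CPM (log axis) of the 12 members with the highest mean CPM, 1 point per library and a black tick at each group mean, n = 3 libraries per group. AT4G08985 lies near 12.9 without CHX and near 1582 with CHX in EV cells, while the groups of AT3G03475 overlap.

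With CHX, members moved in both directions. The ranking used all 12 libraries, the 6 with CHX among them, so it favoured loci that rise strongly. A locus high in 1 group, or only without CHX, could enter through those libraries as well. The counts, sizes and p-values of changes with CHX and between vectors, here and in the other paragraphs, describe the members and are read as no more. In EV cells 78 of the 200 members rose and 69 fell (edgeR quasi-likelihood test, Benjamini-Hochberg adjusted p under 0.05 over 18674 loci). That is 39.0% and 34.5%, beside 23.6% and 24.5% of all loci tested. In TGA4 cells 79 rose and 65 fell, or 39.5% and 32.5%, beside 23.4% and 22.6% of all loci. The median log2 fold change was 1.93 for the members that rose in EV and -0.75 for those that fell. AT1G06163, which had no read in EV_mChx, lies above the first median also at its lower bound of 5.07. At least 2-fold, 59 rose and 23 fell in EV, beside 16.2% and 6.38% of all loci, and 65 rose and 21 fell in TGA4, beside 16.5% and 6.89%. The absolute log2 fold change had a median of 0.79 over the members against 0.54 over all loci tested in EV, and of 0.81 against 0.56 in TGA4. The members' median level was 32.8, above the 17.6 of all loci tested. Of the 200 members, 75 rose in both vectors and 58 fell in both, beside 19.3% and 18.3% of all loci, while 14 were called in EV alone and 11 in TGA4 alone, beside 10.4% and 8.27%. A call in 1 vector alone is no test of a difference between vectors.

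The share that rose depended on how the members were ranked. A locus that is high only with CHX can enter the 200 through the 6 libraries with CHX. Of the 200, 170 are also among the highest 200 in the libraries without CHX, and 174 among the highest 200 in those with CHX. Ranked on the libraries without CHX, 49 of 200 loci rose in EV and 49 in TGA4 (24.5% each, near the background), and 89 and 82 fell (44.5% and 41.0%). That ranking in turn favours loci that fall with CHX, so neither ranking gives a neutral share of increases or decreases. In that set 30 rose and 30 fell at least 2-fold in EV, the median log2 fold change was 1.12 for those that rose and -0.80 for those that fell, and the median absolute value was 0.67 in EV and 0.71 in TGA4. Scaling matters as well. With library totals in place of TMM factors the median log2 fold change of all loci shifted to -0.30 in EV and -0.34 in TGA4, and 69 members rose and 90 fell in EV, so that the share of members' calls that were increases went from 53.1 to 43.4% in EV and from 54.9 to 44.6% in TGA4. Over all loci tested the same share went from 49.1 to 32.4% in EV and from 50.9 to 31.8% in TGA4.

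**Figure D2:**
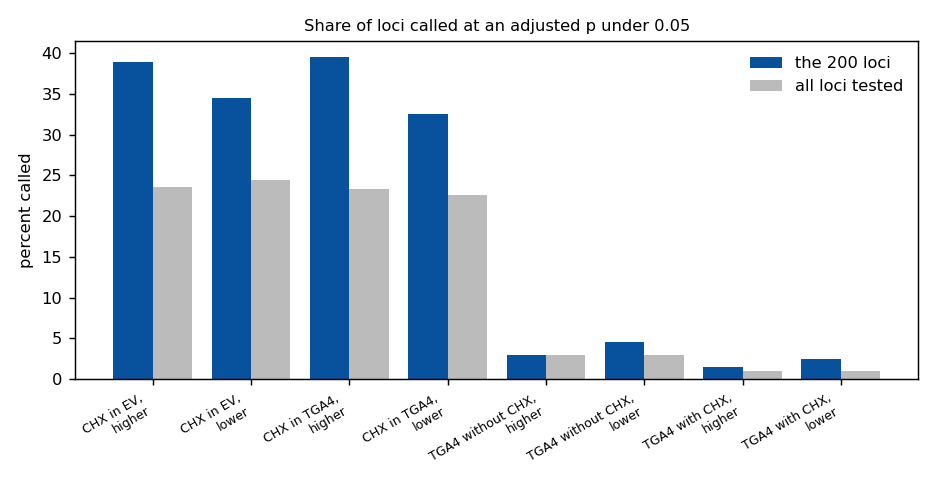
Percent of loci called at an edgeR adjusted p under 0.05 in each comparison and direction, for the 200 members (dark bars) and for all 18674 loci tested (grey bars). The dark bars exceed the grey ones in the CHX comparisons (39.0 against 23.6% for loci higher in EV). For increases this gap is absent when members are ranked without CHX libraries, but that ranking favours loci that fall with CHX.

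Among antisense members, the largest increases in EV reached a log2 fold change of 7.11. AT1G05767 lies inside exons of AT1G22810, a gene of the DREB group of ERF factors. It was at 0.641, 0.805 and 1.67 in EV_mChx and 161, 121 and 179 in EV_pChx (log2 fold change 7.11 ± 0.26, adjusted p = 9.71e-16), and at 1.87, 1.48 and 0.229 in TGA4_mChx and 113, 124 and 129 in TGA4_pChx. The low group rests on a few reads per library, so the size of this fold is loose. AT4G08985 had log2 fold changes of 6.97 ± 0.15 in EV and 6.65 ± 0.15 in TGA4 (adjusted p = 1.07e-18 and 2.99e-18). AT1G09987, opposite the DNA glycosylase family gene AT1G80850, was at 1.60, 0.966 and 1.86 in EV_mChx and 131, 117 and 112 in EV_pChx (log2 fold change 6.37 ± 0.21). AT1G56242, opposite PP2-B13, a gene of the phloem protein 2 family, was at 11.9, 6.44 and 7.24 and 535, 498 and 615 in the same groups (log2 fold change 6.09 ± 0.21 in EV and 5.92 ± 0.23 in TGA4). In each of these members the lowest library with CHX was above the highest without it. Without CHX, AT1G05767, AT1G09987 and AT1G56242 lay below 15.3 CPM, the mean at rank 200, in every library. They entered the 200 through the libraries with CHX, so their p-values are no independent support.

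Decreases were smaller. The largest was that of AT4G06685, inside exons of the auxin-responsive family gene AT4G17280, which was at 58.0, 73.7 and 55.5 in EV_mChx and 6.11, 5.51 and 3.33 in EV_pChx (log2 fold change -3.60 ± 0.22, adjusted p = 4.14e-12) and at 35.6, 36.7 and 50.7 and 4.78, 7.46 and 7.25 in the TGA4 groups (log2 fold change -2.63 ± 0.23). AT2G08340, opposite the glutathione transferase gene GSTU7, went from 134, 178 and 170.3 to 64.9, 54.4 and 47.8 in EV. AT1G51645, opposite the exocyst gene EXO70G2, went from 29.8, 21.7 and 32.8 to 9.96, 11.0 and 6.89, and AT1G03545, opposite the vesicle protein gene SCAMP4, from 29.2, 38.1 and 34.9 to 10.1, 12.8 and 12.8. These changes were -1.53 ± 0.13, -1.57 ± 0.24 and -1.54 ± 0.16 on the log2 scale, with no overlap between groups. With CHX, AT4G06685 and AT1G51645 lay below 15.3 CPM, the mean at rank 200, in every library. They entered the 200 through the libraries without CHX, so their tests are no independent support. In TGA4 cells AT2G09205, which shares 24 bases with the phenylpropanoid P450 gene CYP98A3, fell from 32.9, 50.03 and 25.9 to 12.5, 7.64 and 6.45 (log2 fold change -2.04 ± 0.26, adjusted p = 1.26e-06). The 1 member with a gene symbol of its own, GUT15 (AT2G18440), a noncoding RNA first described for its unstable transcript, was at 93.9, 119.7 and 108 in EV_mChx and 62.7, 68.9 and 61.1 in EV_pChx, and at 94.3, 115 and 108 and 64.7, 54.7 and 67.3 in the TGA4 groups. GUT15 fell in both vectors, with log2 fold changes of -0.75 ± 0.12 and -0.78 ± 0.13 (adjusted p = 2.23e-05 and 2.70e-05), and the groups did not overlap.

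The antisense members moved with the coding gene on the other strand. Across the 177 pairs, the log2 fold changes of member and partner had a Pearson r of 0.99 for CHX in EV and 0.98 for CHX in TGA4, given as a description because the members of a pair share reads, libraries and position. In 175 pairs the log2 fold changes of the CHX response in EV differed by less than 1, with a median gap of 0.12. Both were called in 123 pairs, all in the same direction, the member alone in 6 and the partner alone in 9. Within a pair, r of log2(CPM + 1) over the 12 libraries had a median of 0.94 (-0.62 to 1.00), and of 0.97 in the 63 members that lie wholly within other exons. Per kilobase of exon, the level of the member was 0.96 times that of its partner at the median (0.15 to 7.64). For TGA4 against EV, r across pairs was 0.78 without CHX and 0.83 with CHX.

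**Figure D3:**
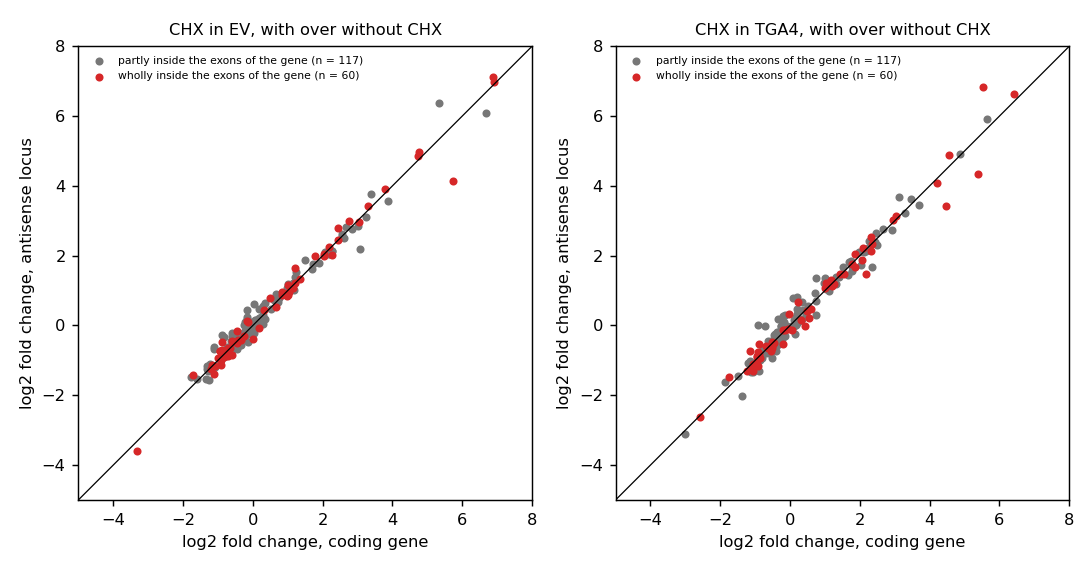
Log2 fold change of each antisense member (vertical) against that of the coding gene on the other strand (horizontal) for CHX in EV and CHX in TGA4, 177 pairs, with the line of equality and members wholly inside that gene's exons in red. Points follow the line from decreases to increases, with a Pearson r of 0.99 in EV and 0.98 in TGA4.

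Few pairs parted, and the ones named here were picked after their values were seen. AT3G01055 lies wholly within exons of AT3G01830, yet its CHX response in EV was 4.15 ± 0.22 against 5.73 ± 0.14 for the gene, and per kilobase its level was 0.15 times that of the gene. Without CHX, AT3G01055 lay below 15.3 CPM, the mean at rank 200, in every library. It entered the 200 through the libraries with CHX. AT1G80325, opposite the molybdate transporter gene MOT2, has 55.9% of its exon bases in MOT2 exons, 29.9% in exons of AT1G80315 on its own strand and 27.8% in exons of AT1G80320 on the other. It was at 24.0, 27.4 and 19.9 in EV_mChx and 32.7, 38.6 and 38.0 in EV_pChx and rose by 0.61 ± 0.17 in EV and 0.80 ± 0.18 in TGA4 (adjusted p = 0.00445 and 8.49e-04). MOT2 had log2 fold changes of 0.04 ± 0.14 and 0.07 ± 0.15 (adjusted p = 0.854 and 0.723). The r of this pair over the 12 libraries, -0.62, was the lowest of the 177.

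The 14 members that overlap no other annotated gene are the ones whose position is shared with no second locus of the annotation, the repeated 18S locus AT3G41768 among them. With CHX, 5 of them rose and 6 fell in EV, and 5 rose and 5 fell in TGA4, beside 23.6% and 24.5% of all loci in EV and 23.4% and 22.6% in TGA4. AT1G06163 (chromosome 1, 10012637 to 10013263, plus strand, a single exon of 627 bases) had no read in EV_mChx and was at 30.9, 31.9 and 33.8 in EV_pChx. That is at least 33.6-fold higher with CHX, set against 3 counts in the shallowest EV_mChx library. In TGA4 cells it was at 0, 0.371 and 1.15 without CHX (6 reads in all) and at 34.6, 46.9 and 54.0 with CHX (log2 fold change 6.14 ± 0.38, adjusted p = 3.28e-11). The next gene, 170 bases beyond its end and on the other strand, is GRX480 (AT1G28480), which encodes a glutaredoxin that binds TGA factors. GRX480 was at 1.60, 1.13 and 1.48 in EV_mChx, 428, 453 and 505 in EV_pChx, 21.0, 15.2 and 16.3 in TGA4_mChx and 439.8, 633 and 727 in TGA4_pChx, so the order of the 4 groups is that of AT1G06163. Whether reads that run past the end of GRX480 add to AT1G06163 was not tested.

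AT1G07143 (chromosome 1, 16131687 to 16132318, plus strand) was at 1.60, 1.93 and 3.34 in EV_mChx and 33.1, 49.0 and 60.4 in EV_pChx, and at 4.87, 6.30 and 4.59 and 45.2, 75.1 and 79.4 in the TGA4 groups (log2 fold changes 4.29 ± 0.30 and 3.69 ± 0.28). The formin family gene AT1G42980, 967 bases further on the same strand, rose from 19.2, 17.5 and 28.8 to 182, 225 and 297 in EV. AT4G01533 (chromosome 4, 667148 to 669073, minus strand) was at 10.3, 7.88 and 6.12 in EV_mChx and 58.3, 67.4 and 64.4 in EV_pChx (log2 fold change 3.01 ± 0.17), and the uncharacterized gene AT4G01535, 265 bases away on the other strand, was at 4.81, 2.90 and 5.57 and 35.2, 34.3 and 42.8. For these 3 loci (AT1G06163, AT1G07143 and AT4G01533) a neighbouring gene rose too. All 3 lay below 15.3 CPM, the mean at rank 200, in every library without CHX. They entered the 200 through the libraries with CHX. AT1G11185 (chromosome 1, 3749510 to 3750035, plus strand) was at 4.81, 14.8 and 10.6 in EV_mChx and 94.3, 84.3 and 72.3 in EV_pChx, and at 7.11, 6.30 and 8.03 and 50.7, 58.8 and 47.9 in the TGA4 groups (log2 fold changes 2.96 ± 0.21 and 2.86 ± 0.25, adjusted p = 7.70e-11 and 2.53e-09). Its neighbours did not rise: the nuclease gene BFN1, 30 bases away on the other strand, had a log2 fold change of -1.09 in EV (adjusted p = 0.00113), and SCAMP2, 952 bases away, one of 0.28 (adjusted p = 0.46). Without CHX, AT1G11185 lay below 15.3 CPM in every library but the second of EV_mChx. It too was lifted into the 200 by the libraries with CHX, so its p-values are no independent support. AT1G55525 (chromosome 1, 20728329 to 20728745, minus strand) went from 50.3, 49.6 and 50.3 to 59.2, 85.7 and 71.3 in EV, and the TATA-binding protein gene TBP2, 235 bases away, from 94.3, 87.2 and 87.4 to 163, 183 and 171, so that both rose (0.52 ± 0.14 and 0.95 ± 0.10 on the log2 scale).

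The stretch from 250 bases before to 50 bases after the annotated start of these 5 loci is shown because these members rose and share no position with a second locus of the annotation (TAIR10.1, strand of the locus, 5′ to 3′). The capitals mark TTGAC, the core of the W box bound by WRKY factors, and TGACG, the core bound by TGA factors, searched on both strands, so that GTCAA and CGTCA are the same motifs on the other strand. The motifs overlap where a sequence reads TTGACG.
AT1G06163, chr1:10012387-10012686: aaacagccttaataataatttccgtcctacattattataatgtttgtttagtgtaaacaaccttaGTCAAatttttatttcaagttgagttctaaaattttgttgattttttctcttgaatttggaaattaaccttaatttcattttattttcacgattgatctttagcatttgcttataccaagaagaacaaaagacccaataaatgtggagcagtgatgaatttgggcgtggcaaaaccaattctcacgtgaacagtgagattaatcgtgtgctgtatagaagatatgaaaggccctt
AT1G07143, chr1:16131437-16131736: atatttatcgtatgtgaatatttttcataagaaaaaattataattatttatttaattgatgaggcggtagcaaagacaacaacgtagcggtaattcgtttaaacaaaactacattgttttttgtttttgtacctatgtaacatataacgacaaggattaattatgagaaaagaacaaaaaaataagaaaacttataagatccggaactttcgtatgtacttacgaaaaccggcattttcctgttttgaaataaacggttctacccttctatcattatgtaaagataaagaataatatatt
AT4G01533, chr4:669024-669323: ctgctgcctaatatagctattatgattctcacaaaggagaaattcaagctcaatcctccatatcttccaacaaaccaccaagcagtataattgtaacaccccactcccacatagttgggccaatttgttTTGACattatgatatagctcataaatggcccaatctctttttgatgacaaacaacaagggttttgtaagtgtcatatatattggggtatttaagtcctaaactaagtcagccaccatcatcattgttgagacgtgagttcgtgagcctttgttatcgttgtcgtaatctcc
AT1G11185, chr1:3749260-3749559: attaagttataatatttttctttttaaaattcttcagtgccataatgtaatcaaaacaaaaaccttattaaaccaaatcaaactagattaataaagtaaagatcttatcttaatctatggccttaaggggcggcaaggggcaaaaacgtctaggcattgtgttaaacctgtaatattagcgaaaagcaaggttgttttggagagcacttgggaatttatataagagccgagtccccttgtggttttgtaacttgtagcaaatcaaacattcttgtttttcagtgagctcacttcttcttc
AT1G55525, chr1:20728696-20728995: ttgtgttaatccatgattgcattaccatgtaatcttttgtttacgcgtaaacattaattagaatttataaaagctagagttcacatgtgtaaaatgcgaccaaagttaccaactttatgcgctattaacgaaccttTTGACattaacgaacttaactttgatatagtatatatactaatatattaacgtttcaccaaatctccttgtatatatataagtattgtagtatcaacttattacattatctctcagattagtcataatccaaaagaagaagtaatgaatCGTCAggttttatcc
TTGAC was found in 3 of these 5 windows and TGACG in 1 of them. Of the windows of the same length at all 33054 loci with an annotated start, 49.8% held TTGAC and 23.0% held TGACG, and of the 200 members' windows 49.5% and 20.5%. These matches are a description of letters and no binding was measured.

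**Figure D4:**
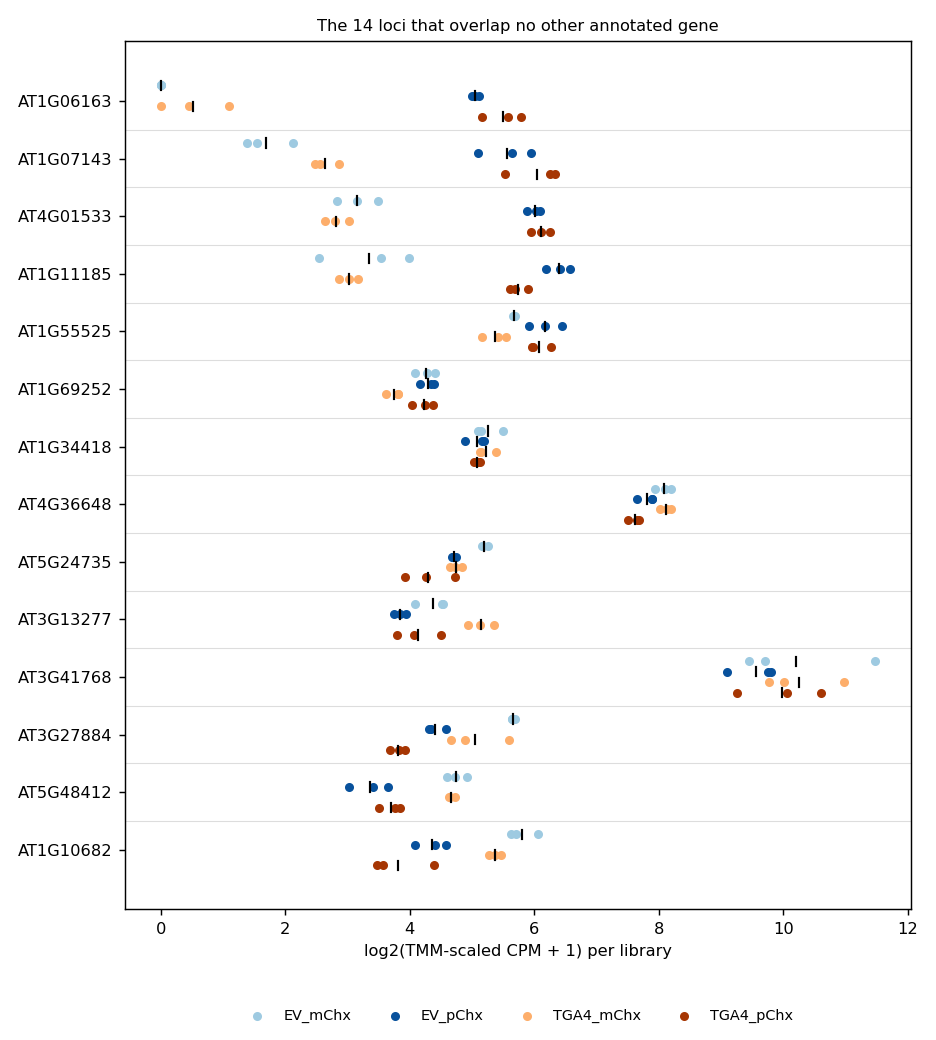
Level of the 14 members that overlap no other annotated gene, as log2(TMM-scaled CPM + 1), 1 point per library and a black tick at each group mean, n = 3 per group, ordered by the CHX response in EV. The 4 loci at the top are separated by CHX in both vectors, AT1G34418 and AT1G69252 overlap between EV_mChx and EV_pChx, and AT1G10682 at the bottom is lower with CHX.

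Of the members that stand apart and fell, AT1G10682 (chromosome 1, 3544913 to 3545614, minus strand) was at 51.0, 48.6 and 65.5 in EV_mChx and 22.8, 20.3 and 15.9 in EV_pChx, and at 40.4, 37.4 and 43.4 and 19.9, 10.1 and 10.9 in the TGA4 groups (log2 fold changes -1.47 ± 0.19 and -1.62 ± 0.22). AT5G48412 went from 29.2, 23.2 and 25.6 to 9.56, 11.6 and 7.13 and AT3G27884 from 50.7, 49.1 and 48.8 to 23.0, 18.7 and 19.3 in EV. All 3 fell in both vectors without overlap. With CHX, AT5G48412 lay below 15.3 CPM, the mean at rank 200, in every library. It entered the 200 through the libraries without CHX. AT4G36648 and AT3G13277 fell in both vectors by less (-0.27 ± 0.11 and -0.57 ± 0.20 in EV), and AT5G24735 was called in EV alone (-0.51 ± 0.16, adjusted p = 0.0131, against -0.42 ± 0.18 in TGA4, adjusted p = 0.0665). AT1G34418 and AT1G69252 were called in neither vector, with log2 fold changes in EV of -0.19 ± 0.15 and 0.03 ± 0.18. AT1G34420, 1623 bases from AT1G34418 on the same strand, rose with CHX in EV (2.28, adjusted p = 4.16e-10). PBRP, 302 bases from AT4G36648 on the same strand, also rose (0.81, adjusted p = 7.26e-06). A neighbouring gene that rises is thus not particular to the members that rose.

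The 9 members with another kind of overlap also went both ways. AT1G18745, whose exon holds 4 snoRNA loci on its own strand, was at 2.89, 4.99 and 1.67 in EV_mChx and 39.3, 34.1 and 33.0 in EV_pChx, and at 1.50, 1.85 and 1.84 and 28.3, 27.9 and 28.2 in the TGA4 groups (log2 fold changes 3.43 ± 0.25 and 3.99 ± 0.31). Without CHX, AT1G18745 lay below 15.3 CPM, the mean at rank 200, in every library. It entered the 200 through the libraries with CHX. AT1G64563, which shares 13.3% of its exon bases with the lncRNA AT1G08713, fell from 32.4, 34.4 and 26.9 to 10.4, 10.2 and 10.5 in EV (-1.59 ± 0.20, adjusted p = 8.10e-07). With CHX, AT1G64563 lay below 15.3 CPM in every library. It entered the 200 through the libraries without CHX, so its p-value is no independent support. AT3G06355, next to the 18S locus and sharing 164 bases with another rRNA locus, went from 137, 140.2 and 154 to 85.5, 64.0 and 76.3 in EV, without the high value that AT3G41768 had in the third library. AT5G01595, whose span overlaps that of the ferritin gene FER1 on the other strand without a shared exon base, went from 119, 103 and 127 to 159, 193 and 238, and AT3G52748, which shares 40 bases with the noncoding locus AT3G52742, from 13.8, 8.69 and 12.1 to 21.5, 27.6 and 25.7. AT2G24755, opposite pseudogenes, fell in EV (-1.24 ± 0.18, adjusted p = 4.24e-06) and was not called in TGA4 (-0.34 ± 0.18, adjusted p = 0.145). AT1G60545 and AT3G48115 were called in neither vector.

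Few members differed between TGA4 and EV cells. Without CHX, 6 were higher and 9 lower in TGA4 than in EV cells (3.0% and 4.5%, beside 2.91% and 2.97% of all loci tested), and with CHX 3 were higher and 5 lower (1.5% and 2.5%, beside 0.948% and 0.969%). Without CHX these shares are near the background, and with CHX they rest on 3 and 5 members. At either CHX level 19 members were called, 2 of them higher and 2 lower at both. The counts depend on single libraries. With CHX, leaving out 1 library gave 2 to 6 higher (6 without the second EV_mChx library) and 0 to 9 lower (0 without the second TGA4_pChx library, 1 without the first EV_pChx or the third TGA4_pChx library, 9 without the second EV_mChx or the first TGA4_pChx library), and testing without the filter on low counts gave 8 higher and 12 lower. Without CHX, leaving out 1 library gave 4 to 9 higher and 5 to 11 lower (5 without the third EV_mChx or the second TGA4_mChx library). The share of all loci called under each of these settings is not given here, so these shifts are no result about the members.

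AT5G59732, opposite the exocyst gene EXO70H7, was higher with TGA4 at both CHX levels, at 23.1, 21.2 and 18.7 in EV_mChx and 44.2, 35.2 and 36.7 in TGA4_mChx, and at 205, 251 and 294 in EV_pChx and 393, 506 and 539.8 in TGA4_pChx. The log2 fold changes were 0.89 ± 0.17 and 0.94 ± 0.13 (adjusted p = 0.00337 and 1.85e-04). AT1G05147, opposite the glutamine amidotransferase gene GAT1_2.1, was at 7.05, 6.76 and 8.35 in EV_mChx, 26.6, 24.8 and 19.3 in TGA4_mChx, 55.5, 48.8 and 75.6 in EV_pChx and 84.9, 110.3 and 109 in TGA4_pChx (log2 fold changes for TGA4 1.64 ± 0.22 and 0.77 ± 0.15, adjusted p = 5.37e-05 and 0.00816). For both loci CHX and TGA4 each went with a higher level. The call of AT1G05147 with CHX was lost without the second EV_pChx library (adjusted p = 0.0765) or the second or the third TGA4_pChx library (adjusted p = 0.0904 and 0.0532). AT3G24518, opposite the heat shock factor gene HSFC1, was at 63.1, 59.5 and 51.8 in EV_pChx and 123, 142 and 111 in TGA4_pChx (log2 fold change 1.11 ± 0.13, adjusted p = 1.30e-05). AT3G01205, opposite AT3G02910, was at 109, 83.2 and 100.02 in EV_mChx and 134, 201 and 173 in TGA4_mChx (0.81 ± 0.13, adjusted p = 4.63e-04). The 1 stand-alone member called for TGA4, AT3G13277, was at 21.8, 15.9 and 22.1 in EV_mChx and 34.1, 29.6 and 39.9 in TGA4_mChx without CHX (0.82 ± 0.19, adjusted p = 0.0131), and it was not called without the second EV_mChx library (adjusted p = 0.0645) or the third TGA4_mChx library (adjusted p = 0.111).

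Lower with TGA4 at both CHX levels were AT3G04615, opposite the dirigent family gene AT3G24020, and AT4G26542, opposite the receptor kinase gene AT4G26540. AT3G04615 was at 30.8, 48.8 and 39.5 in EV_mChx and 19.8, 14.1 and 23.6 in TGA4_mChx, and at 45.0, 42.1 and 38.0 in EV_pChx and 19.5, 18.3 and 24.2 in TGA4_pChx (log2 fold changes -1.04 ± 0.19 and -1.04 ± 0.19, adjusted p = 0.00202 and 0.00363), and the call with CHX was lost without the second TGA4_pChx library (adjusted p = 0.0643). AT4G26542 was at 23.4, 25.6 and 41.0 in EV_mChx and 14.2, 14.8 and 13.3 in TGA4_mChx (-1.11 ± 0.21, adjusted p = 0.00241), and its call with CHX (-0.90 ± 0.22, adjusted p = 0.0383) was lost when any 1 of 8 libraries was left out (adjusted p = 0.0518 to 0.229). AT2G37362, opposite ABCG2, was at 316, 266 and 307 in EV_mChx and 186, 170.1 and 201 in TGA4_mChx (-0.67 ± 0.14, adjusted p = 0.00449), and AT1G04247, opposite the fatty acid elongation gene KCS2, at 216, 160.3 and 126 in EV_pChx and 118, 97.7 and 92.3 in TGA4_pChx (-0.72 ± 0.15, adjusted p = 0.0119). Without CHX, AT2G19572 (opposite the cytidine deaminase gene CDA1) and AT5G66558 (opposite AT5G66560) were lower by 0.79 and 0.83 on the log2 scale, and with CHX, AT2G08435 (opposite AT2G31390) by 0.47. The calls of AT5G66558, AT1G04247 and AT2G08435 were each lost when any 1 of 3 or 4 libraries was left out, with adjusted p values of 0.0512 to 0.129, 0.0807 to 0.102 and 0.114 to 0.223.

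**Figure D5:**
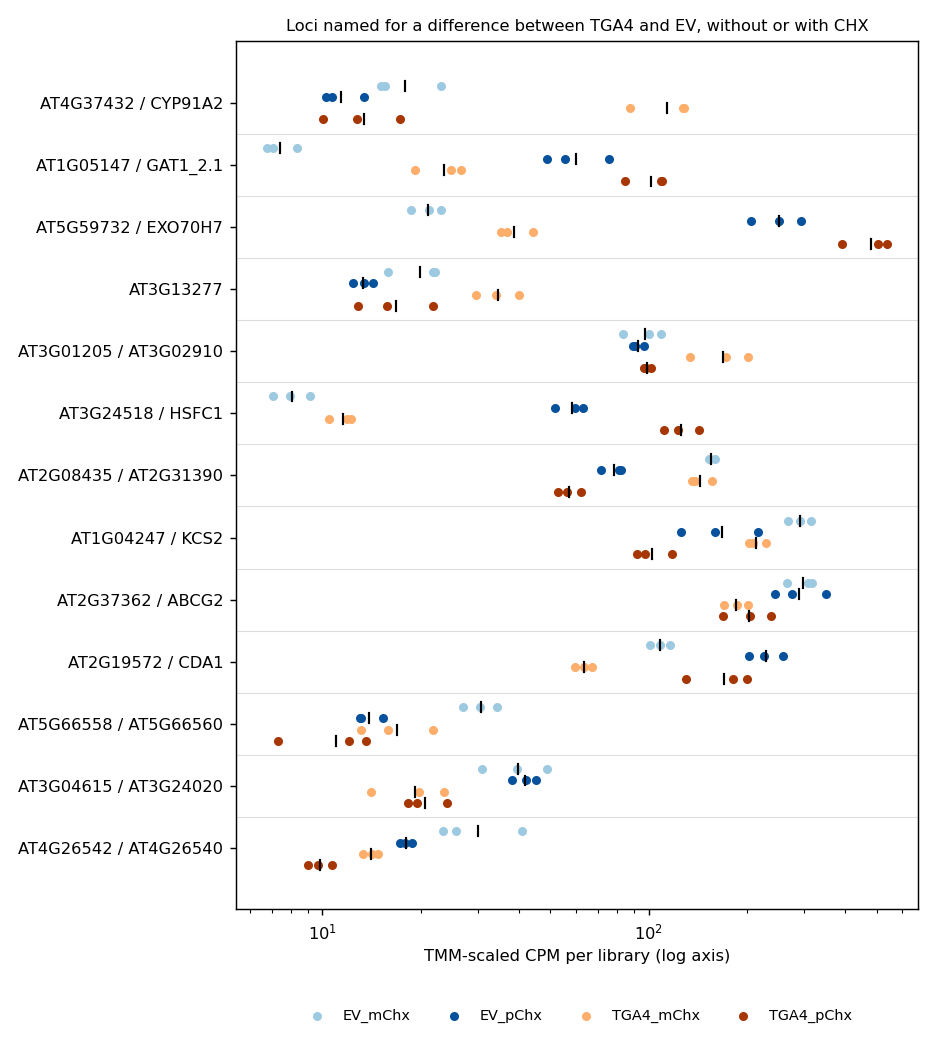
TMM-scaled CPM (log axis) of the 13 members named for a difference between TGA4 and EV cells, with the coding gene on the other strand after the slash, 1 point per library and a black tick at each group mean, n = 3 per group. AT4G37432 is high in TGA4_mChx alone (87.6, 127 and 128), and AT5G59732 is higher with TGA4 at both CHX levels.

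The effect of TGA4 depended on CHX in 1 member of 200, beside 0.129% of all loci tested. Without the filter on low counts it did in 4 members, for which the share of all loci is not given. The TGA4 transcript was itself higher with CHX in TGA4 cells, and its part in the interaction was not tested. AT4G37432 (chromosome 4, 17596973 to 17598929, minus strand) lies opposite the cytochrome P450 gene CYP91A2 (AT4G37430). It was at 23.1, 15.1 and 15.6 in EV_mChx, 87.6, 127 and 128 in TGA4_mChx, 10.2, 13.4 and 10.7 in EV_pChx and 17.3, 12.8 and 10.1 in TGA4_pChx. The TGA4_mChx libraries were above all others, and EV_pChx and TGA4_pChx overlapped. The ranking used the TGA4_mChx libraries too, so the high level there helped AT4G37432 into the 200. Its p-values are therefore no independent support. It was higher with TGA4 without CHX (2.71 ± 0.19, adjusted p = 1.40e-08), the log2 fold change with CHX was 0.23 ± 0.23 (adjusted p = 0.767), and the TGA4 effect with CHX minus that without CHX was -2.48 ± 0.30 (adjusted p = 2.59e-04). CYP91A2 was at 24.4, 23.0 and 17.3 in EV_mChx, 67.0, 127 and 123 in TGA4_mChx, 10.5, 9.45 and 9.74 in EV_pChx and 16.9, 12.6 and 10.1 in TGA4_pChx, and its own difference of the TGA4 effects was -1.91 ± 0.33 (adjusted p = 0.0117). The stretch of AT4G37432 that crosses the intron of CYP91A2 is shown because 88.7% of its exon bases are in CYP91A2 exons, while the intron is among the bases that belong to the member alone (TAIR10.1, chr4:17598020-17598319, minus strand, 5′ to 3′, CYP91A2 exon bases in capitals and its 85 intron bases in lower case):
AT4G37432: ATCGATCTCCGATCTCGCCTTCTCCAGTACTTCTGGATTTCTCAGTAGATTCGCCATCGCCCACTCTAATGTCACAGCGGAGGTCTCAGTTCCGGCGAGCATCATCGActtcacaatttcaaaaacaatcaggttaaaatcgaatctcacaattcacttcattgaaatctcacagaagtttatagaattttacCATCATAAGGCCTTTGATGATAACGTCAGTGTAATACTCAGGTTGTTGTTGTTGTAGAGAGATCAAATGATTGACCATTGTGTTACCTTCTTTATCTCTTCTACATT
The tables hold 1 count per locus, so reads on these intron bases were not counted apart from the rest.

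The genes that degrade or process such RNAs were read from 4 lists. Of 9 NMD factors 5 fell with CHX in EV and 6 in TGA4, beside 24.5% and 22.6% of all loci, with median log2 fold changes of -0.32 and -0.38 against -0.02 and -0.01 over all loci. Y14 and EIF4A-III, both of the exon junction complex, fell by 0.63 and 0.62 on the log2 scale in EV (adjusted p = 7.95e-05 and 5.29e-05), and UPF1, the central NMD helicase, had -0.20 (adjusted p = 0.0822). Of 15 genes of the exosome, which degrades RNA from the 3′ end, CER7 alone was called, in EV (log2 fold change -0.57, adjusted p = 0.0286), with an adjusted p of 0.106 in TGA4. Of 6 decapping and 5′-to-3′ decay genes DCP1 alone was called, in EV (-0.48, adjusted p = 0.0022), with an adjusted p of 0.0949 in TGA4. Of 9 small RNA genes 3 rose and 1 fell in EV, beside 23.6% and 24.5% of all loci, and 2 rose and 1 fell in TGA4, beside 23.4% and 22.6%. AGO7, which loads the small RNA that starts trans-acting siRNA production, rose by 2.12 and 2.03 (adjusted p = 1.17e-05 and 0.000107), and DCL1, the miRNA-making Dicer, fell by 0.78 and 0.91 (adjusted p = 9.44e-06 and 2.17e-06). Their part in the levels of the members was not tested.

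At the end of the ranking, the last 3 members were AT2G07850, AT1G08657 and AT1G08037, with mean CPM values of 15.5, 15.5 and 15.3, and the next 3 IDs outside were AT4G38215, AT5G36002 and AT1G04047, with 15.3, 15.2 and 14.9. The limit at rank 200 thus passes through loci of nearly equal level.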

How the data were processed

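RNA was sequenced from sorted root protoplasts, and the authors deposited 1 table of raw read counts per locus for each library, the unit used here. Per the methods, reads of poly(A)-selected libraries were aligned to TAIR10 with TopHat and counted with GenomicFeatures and GenomicAlignments. The annotation release, the strand setting and the treatment of overlapping loci are not given in the sources used here. The members were ranked by CPM from library totals, and positions, exons and sequences came from RefSeq TAIR10.1. Counts were fitted in R 4.3.3 with edgeR 4.0.16 (filterByExpr, TMM factors, quasi-likelihood test), 1 mean per group over 12 libraries, with Benjamini-Hochberg adjustment over 18674 loci and a threshold of 0.05. Members named are the 12 highest, the 5 largest called changes each way per comparison without overlap and with at least 5 CPM in the higher group, the interaction calls, the members with a symbol and the ranks beside 200, while pairs named for parting, stand-alone loci and those with other overlaps were added after their values were seen. Members and gene lists were chosen with earlier results of these data known. Alternatives were DESeq2 1.42.0, other scalings, no filter, other member sets, a replicate block and leaving out each library. The fit was tested on simulated data.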

Additional observations from a re-analysis of the deposited data

Results flagged for a closer look

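The response of AT4G37432 to CHX differed between the vectors. The CHX response in TGA4 cells minus that in EV cells was -2.48 on the log2 scale (edgeR interaction, adjusted p = 0.000259). The TGA4_mChx libraries were above all 9 others. Its reads cannot be told apart from those of CYP91A2 on the other strand.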

How the results depend on the processing

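Of 683 refits of 38 named values, 657 kept direction and side of the threshold, 26 lost the call and 0 reversed, 25 of the 26 on leaving out a library and 1 with the 2 groups fitted alone (AT2G08435, adjusted p = 0.0716). Leaving out 1 library gave 76 to 79 members higher and 60 to 70 lower with CHX in EV, 75 to 80 and 56 to 66 in TGA4, 4 to 9 higher and 5 to 11 lower for TGA4 without CHX, 2 to 6 higher and 0 to 9 lower for TGA4 with CHX, and 1 to 1 for the interaction. The count of 5 lower without CHX came without the third EV_mChx or the second TGA4_mChx library. Members ranked without CHX libraries gave 49 higher with CHX in each vector. The 14 members that overlap no other gene gave 5 higher and 6 lower in EV, 5 and 5 in TGA4, 1 and 0 for TGA4 without CHX, 0 and 0 with CHX, and 0 for the interaction. At 2-fold or more, 23 were lower in EV and 21 in TGA4, and for TGA4 3 were higher and 2 lower without CHX and 1 and 1 with CHX. Without the filter 8 were higher and 12 lower for TGA4 with CHX, and 4 had an interaction. DESeq2 gave 9 lower for TGA4 with CHX. Same-number libraries had correlations of 0.00667 to 0.227 in their deviations from the group mean. Their means were 0.0301 (CHX in EV), 0.0126 (CHX in TGA4), 0.0428 (TGA4 without CHX) and 0.129 (TGA4 with CHX). For libraries of other numbers the means were -0.0150, -0.00628, -0.0214 and -0.0648. These values do not settle whether the replicate numbers pair the libraries, and the main fit had no block. With a replicate block 9 were higher and 10 lower for TGA4 with CHX, 79 and 69 for CHX in EV, 80 and 65 for CHX in TGA4, 9 and 13 for TGA4 without CHX, and 1 had an interaction. The share of all loci called is not given for leaving out a library, no filter, DESeq2 or the block. The shifts in these counts are therefore no result about the members, and their causes were not tested. Depth limits loci near 3 counts, up to 1.25 CPM, and such floors cover counting error only. With 3 wells of 1 transfection per group, the tests do not cover variation between transfections.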
